A study of Arabidopsis thaliana with 12 samples.

Results

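The genes described here are the plastid-encoded genes for the photosynthetic complexes of Arabidopsis thaliana, as read in mature seed. They were chosen by name and place rather than by a measured value, though with earlier results of these data known. A probe set was a member when its only gene in the platform annotation was plastid-encoded and its symbol began with psa, psb, pet, ndh or rbcL, or was ycf3, ycf4, atpA, atpB, atpE, atpF, atpH or atpI. The rule gave 45 of the 22746 non-control probe sets. They covered 15 photosystem II genes, 5 photosystem I genes, the 2 photosystem I assembly genes ycf3 and ycf4, 6 cytochrome b6f genes, 10 genes of the NAD(P)H dehydrogenase-like (NDH) complex, 6 ATP synthase genes and rbcL of Rubisco. Signals were bright enough to test for 43 of them. The 2 that were not, ndhF and atpI, lay below the filter on mean signal, and atpI ranged over its 12 arrays from -1.06 to 4.32 on the log2 scale. A further 8 plastid probe sets named several genes each, ndhB among them, and stayed outside the rule.

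The plastid genome keeps only part of the photosynthetic apparatus, and nuclear genes supply the rest of each complex. Its genes lie in clusters that are transcribed together and then cut, spliced and trimmed into the RNAs of single genes, and they are read by a plastid-encoded and a nuclear-encoded RNA polymerase. An Arabidopsis embryo is green during mid-maturation and loses its chlorophyll as the seed dries, so the transcripts in a dry seed are largely those stored at the end of maturation. The labelling kit used here primes on poly(A), which plastid messengers carry only in part and which in plastids marks RNA for decay. The signal of a plastid gene is therefore a relative reading of the RNA that was primed. Differences between groups are taken below within 1 probe set, and neighbouring genes are compared by these differences. Brightness rankings and the correlation with mean signal set different probe sets side by side and do not measure RNA amounts between genes.

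RNA came from seed shed by opened siliques of plants in the Landsberg erecta (Ler) background, all grown under white fluorescent light at 80 to 100 umol per square metre and second. The reference group was wild-type Ler kept at 20 °C in 16 h days. A second wild-type group was grown the same way until flowering and then held at 10 °C until the seed was ripe, and another wild-type group stayed at 20 °C in 8 h days. The fourth group carried ft-1, a mutation of a flowering promoter in the Ler background, at 20 °C in 16 h days. Its source name reads Glabra while its genotype reads ft-1, and the mutated gene was not used here to check it. Each group had 3 arrays, and nothing in the labels says that they came from separate plants or harvests, so p-values measure the spread between these arrays, which may be technical. The study asked how the environment of the mother plant shapes its seed.

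Summed signals of the arrays lay between 3564490 and 4398240. Of 18 seed identity genes, 5 could be read, and their summed signal ran from 27250 to 29180 in the reference arrays and from 44290 to 47420 in the 10 °C arrays, so the libraries read as seed. Several array-level measures moved with the groups. The mean log2 signal of the poly-A controls, bacterial transcripts added before labelling, was 6.82 ± 0.268 in the reference arrays and 8.57 ± 0.395 in the 10 °C arrays (SD, n = 3). It was 7.71 ± 0.0325 in 8 h days. In ft-1 it was 5.65 and 6.09 on arrays 1 and 3 and 7.88 on array 2. The 3'-to-5' difference of GAPDH, a reading of RNA integrity and labelling length, was 1.52 ± 0.241 at 10 °C against 0.463 ± 0.269 in the reference with the Arabidopsis probe pair, and 0.011 ± 0.125 against 0.372 ± 0.0826 with the second pair, so the pairs point in opposite directions.

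Reference arrays 1 and 2 stood apart from reference array 3 in some genes of green tissue. RCA, the Rubisco activase gene and the only 1 of 5 defining green-tissue markers with a named single-gene probe set, had a log2 signal of 8.52 and 8.53 on reference arrays 1 and 2 and 5.35 on array 3. The other 9 arrays lay between 4.89 and 5.88. Over the 10 readable genes of the nuclear photosynthesis list, out of 53 with a locus, the summed signal was 1367 and 1480 on reference arrays 1 and 2 and 931.5 on array 3. Without RCA it was 998.5, 1110 and 890.7. PSAE-1, PSAN, PSBW, PSBY and ATPC1 were also more than 1 log2 unit lower on array 3 than on both others, while LHCB4.1 (9.07, 9.22 and 9.25), LHCB4.2 (6.49, 6.61 and 6.62) and LHCB4.3 (5.37, 5.77 and 5.51) were not lower on it than on both. The summed signal with RCA was 813.9 to 993.8 in ft-1, 996.1 to 1137 in 8 h days and 1409 to 1626 at 10 °C. None of the 10 was at 0 on every array. Among the plastid photosynthesis genes, atpA, psbC, ndhJ, ndhK and petA were more than 1 log2 unit lower on reference array 3 than on both other reference arrays. The part of these array differences in the results was not tested except where a value is given. In bulk seed, fewer cells of a type and less RNA per cell cannot be told apart.

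Seed matured at 10 °C had lower signals of all 5 tested ATP synthase genes, and the steepest falls belonged to ndhI and ndhA of the NDH complex. The D1 gene psbA and the small photosystem I subunit gene psaJ moved the other way. Of the 43 tested genes, 14 fell and 2 rose against the reference (limma, adjusted p under 0.05 over all 13648 tested probe sets), and 27 did not pass the test. Over all tested probe sets 20.5% fell and 11.3% rose in that comparison. The median difference of the 43 genes was -0.38 log2 units, and that of all tested probe sets was -0.163. Without reference arrays 1 and 2, an alternative chosen after seeing the data, array 3 stood alone and was assumed to vary like the other groups. The median of the 43 genes was then 0.01, against -0.168 for all tested probe sets. Differences were 1.665 for psbA, -1.22 for atpB, -3.93 for ndhI and -3.66 for ndhA, while those of psaB (-0.23), petA (-0.42) and atpA (-0.48) shrank. The falls of atpF (-1.045), atpH (-1.27), psbI (-1.10), psbK (-1.04), ycf3 (-0.82), petB (-0.88) and atpE were also smaller than with all arrays. That of ndhC (-1.30) was larger. With the poly-A mean as a covariate, 5 genes passed, all down, namely atpB, atpF, atpH, ndhI and psbI, while the shares over all probe sets dropped to 1.46% down and 1.64% up. The median of the 43 genes was then -0.35, and some genes that lost the call kept about their size, as psbA (1.12), petA (-1.11) and atpE (-0.74) did. The slope of this covariate rested on the spread within groups, widest in ft-1 (SD 1.18, against 0.0325 to 0.395 in the other groups). It was carried over the gap between the poly-A means of the reference (6.82) and of 10 °C (8.57). Values with the covariate, here and below, are therefore not a measured correction for labelling.

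**Figure D1:**
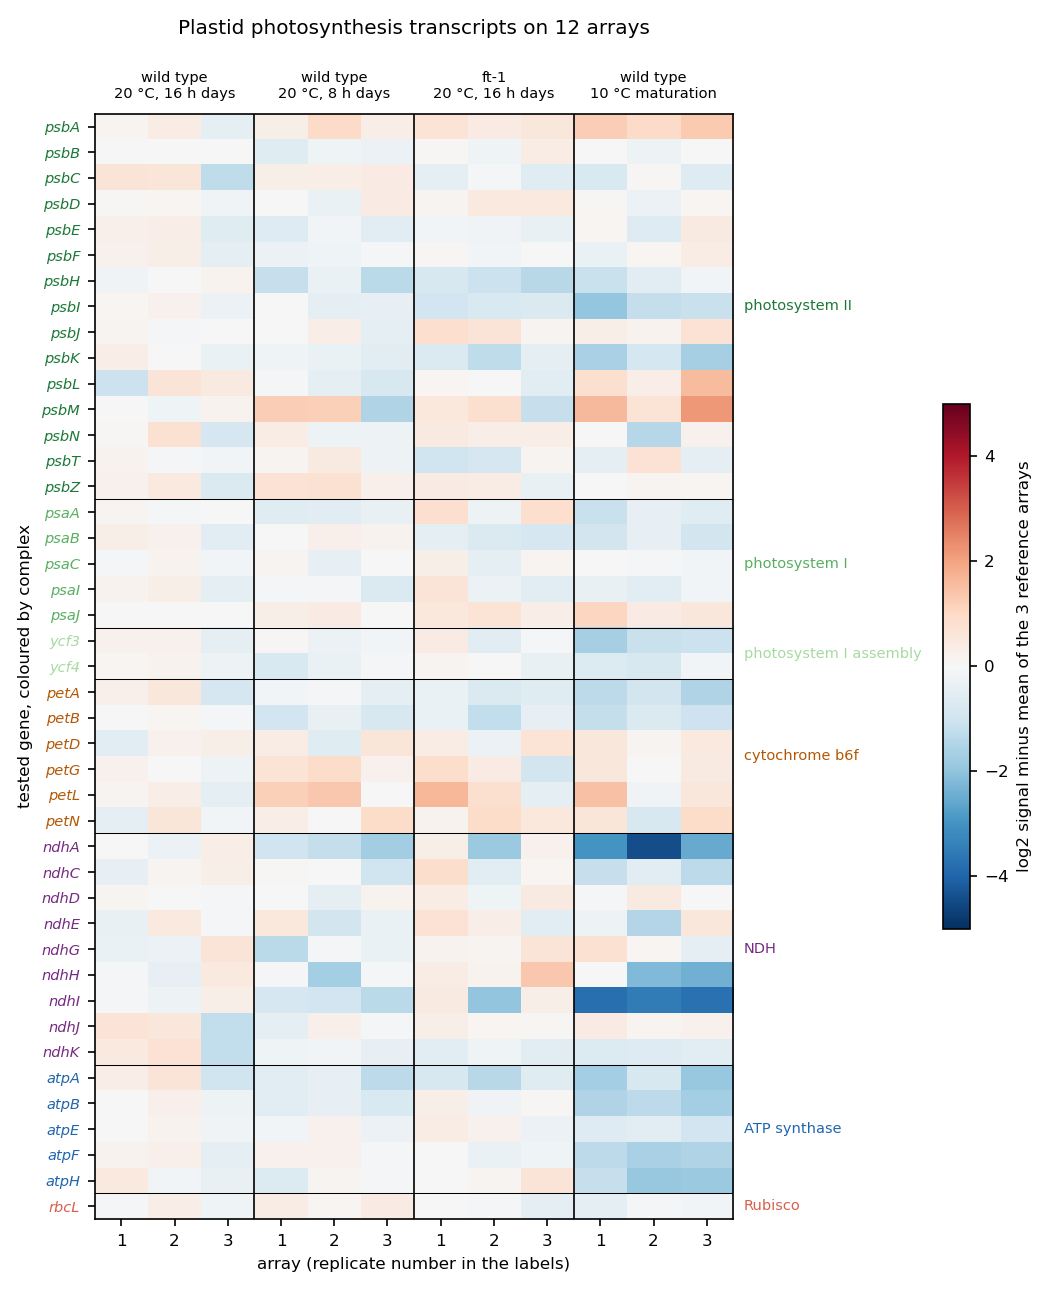
Heat map of the 43 tested genes (rows, by complex) on the 12 arrays (columns, by group), coloured by log2 signal minus the mean of the 3 reference arrays. The darkest blue cells are ndhA and ndhI on the 3 arrays from 10 °C, and the ATP synthase rows are blue there throughout.

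The ATP synthase makes ATP from the proton gradient across the thylakoid membrane. Its catalytic head holds the alpha subunit (atpA), the beta subunit (atpB) and the inhibitory epsilon subunit (atpE), and its membrane part holds subunit b (atpF), the proton-carrying c ring (atpH) and subunit a (atpI). The log2 signal of atpB was 10.50, 10.71 and 10.20 on the reference arrays and 8.98, 9.18 and 8.76 after 10 °C. In 8 h days it was 9.91, 10.07 and 9.72, and in ft-1 it was 10.74, 10.30 and 10.53. All 3 arrays from 10 °C lay below the other 9, and the difference from the reference was -1.496 ± 0.183 log2 units (difference ± SE), a 2.82-fold lower signal, with an adjusted p of 0.000138 in limma. It was still -1.22 without reference arrays 1 and 2.

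The c-ring gene atpH read 6.85, 6.26 and 6.03 in the reference and 5.25, 4.50 and 4.53 at 10 °C, on the log2 scale. Its 8 h arrays read 5.70, 6.51 and 6.28 and its ft-1 arrays 6.38, 6.53 and 7.05. Again the 10 °C arrays lay below all others, with a difference from the reference of -1.62 ± 0.306 (adjusted p = 0.00199, limma). The subunit b gene atpF read 5.84, 5.91 and 5.23 in the reference, 5.89, 5.87 and 5.61 in 8 h days, 5.62, 5.33 and 5.44 in ft-1 and 4.36, 4.03 and 4.18 at 10 °C. The groups from 20 °C overlapped one another and none overlapped the 10 °C group, which differed from the reference by -1.48 ± 0.25 (adjusted p = 0.00112, limma).

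The epsilon subunit gene atpE, brightest of the complex, moved least. Its log2 signal was 11.20, 11.42 and 11.07 in the reference, 11.08, 11.46 and 10.96 in 8 h days, 11.60, 11.43 and 10.94 in ft-1 and 10.60, 10.67 and 10.27 at 10 °C. The fall from the reference was 0.71 ± 0.192 log2 units (adjusted p = 0.0126, limma). The call was lost without reference array 2 (-0.62) and without 10 °C array 3 (-0.59), and when arrays were centred on the median of the tested probe sets (-0.36). For atpA the reference arrays spread widely, at 7.24, 7.53 and 5.91, and the 10 °C arrays at 5.20, 6.08 and 5.02 overlapped array 3 of them. Its difference was -1.46 ± 0.408 (adjusted p = 0.0151, limma) and shrank to -0.48, without a call, against reference array 3 alone. It also lost its call without reference array 1 (-1.29) or 2 (-1.14) and without 10 °C array 1 (-1.34) or 3 (-1.25).

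**Figure D2:**
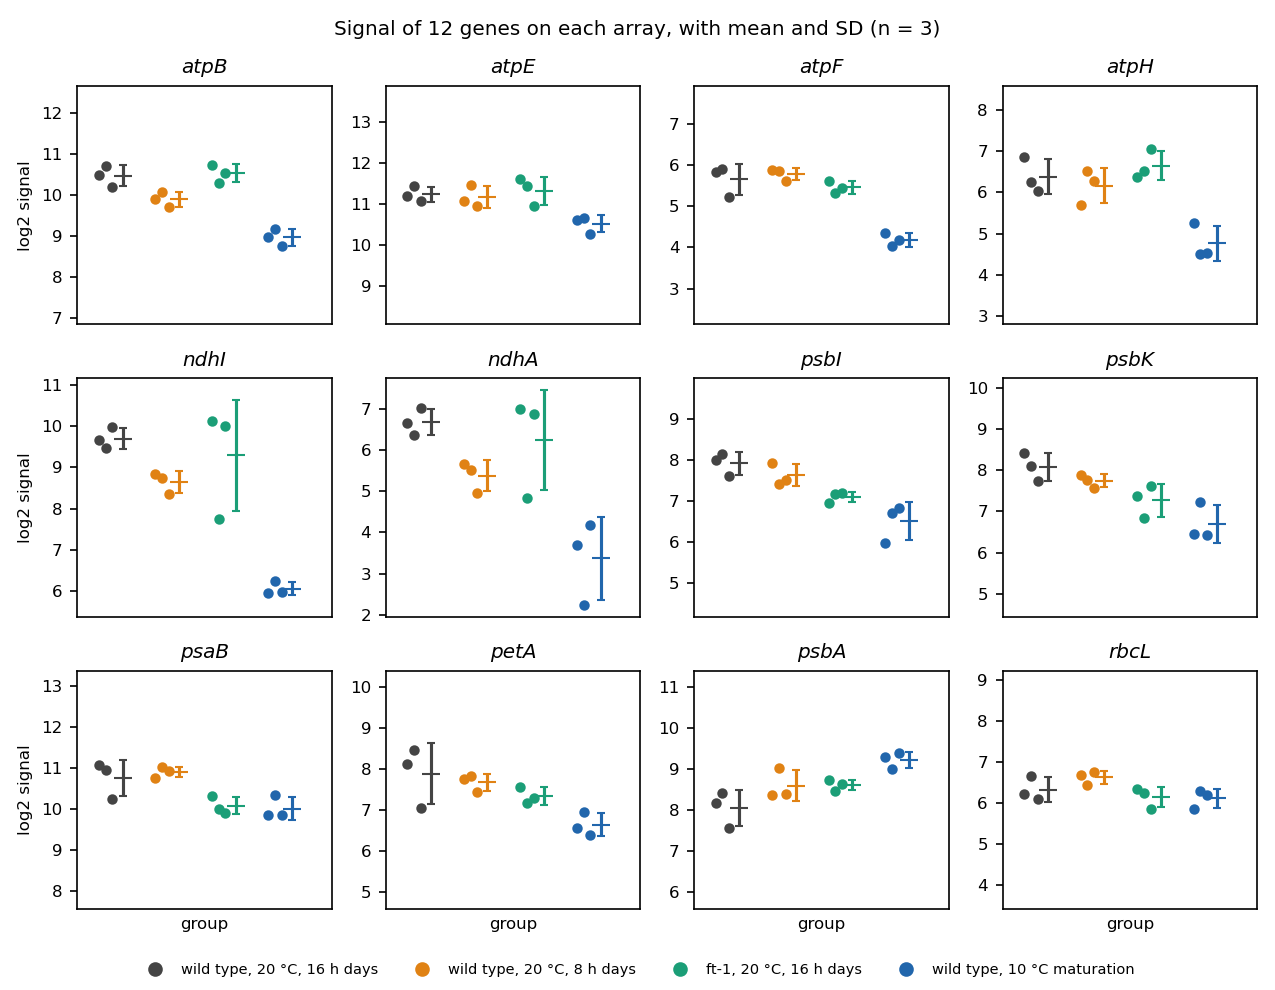
Log2 signal of 12 genes on each array by group (points), with the group mean and SD (n = 3) beside them; every panel spans the same number of log2 units. The 3 arrays from 10 °C lie below all others for atpB, atpE, atpF, atpH, ndhI, ndhA, psbI and petA, and ft-1 array 2 lies apart from its group for ndhI and ndhA.

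The NDH complex feeds electrons from ferredoxin into the plastoquinone pool and takes part in cyclic electron flow. Subunits of its arm outside the membrane are encoded by ndhH, ndhI, ndhJ and ndhK, and membrane subunits by ndhA, ndhC, ndhD, ndhE, ndhF and ndhG. Of the 9 tested genes, 3 fell at 10 °C and none rose, with a median of -0.62 log2 units. The iron-sulfur subunit gene ndhI had a log2 signal of 9.66, 9.47 and 9.98 in the reference and 5.94, 6.23 and 5.97 at 10 °C. It read 8.85, 8.74 and 8.36 in 8 h days and 10.14, 7.74 and 10.01 in ft-1. The 3 arrays from 10 °C lay far below every other array, and the difference from the reference was -3.66 ± 0.449, a 12.6-fold lower signal (adjusted p = 0.000139, limma). With the poly-A covariate it was -1.80 (adjusted p = 0.00258, limma).

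The membrane subunit gene ndhA showed the same order of groups. Its log2 signal was 6.66, 6.38 and 7.03 in the reference, 5.68, 5.51 and 4.96 in 8 h days, 7.00, 4.84 and 6.88 in ft-1 and 3.70, 2.24 and 4.19 at 10 °C. The fall at 10 °C was 3.31 ± 0.539 log2 units, or 9.94-fold (adjusted p = 0.000883, limma). With the poly-A covariate it was -2.08 and lost its call (adjusted p = 0.119, limma). On ft-1 array 2 both ndhI and ndhA, together with psaA, lay more than 1 log2 unit below both other ft-1 arrays. That array also had the highest poly-A reading of its group. It held the lowest value of its group for 20 of the 43 genes, 46.5%, against 48% of all tested probe sets.

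The brightest NDH gene, ndhC, read 8.69, 9.24 and 9.42 in the reference and 7.98, 8.57 and 7.82 at 10 °C. In 8 h days it read 9.19, 9.09 and 8.12, the last within the 10 °C range, and in ft-1 9.98, 8.58 and 9.23. The reference and 10 °C groups did not overlap, and the fall of 1.00 ± 0.352 log2 units only just passed (adjusted p = 0.0432, limma). With the poly-A covariate its value was 0.10. The call was lost without reference array 2 (-0.94) or 3 (-0.84) and without 10 °C array 1 (-0.93) or 3 (-0.84). The gene ndhH fell only in the comparison of 10 °C with ft-1. Against the reference its difference was -1.52 ± 0.72, with 10 °C arrays at 3.50, 1.26 and 1.07 and an adjusted p of 0.119 in limma. The other NDH genes ndhD, ndhE, ndhG, ndhJ and ndhK had differences from -0.62 to 0.25 and no call.

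Photosystem II splits water and holds the reaction centre proteins D1 (psbA) and D2 (psbD), the inner antenna proteins (psbB and psbC), the cytochrome subunits (psbE and psbF) and many one-helix subunits. Of 15 tested genes 1 rose and 2 fell at 10 °C, with a median of -0.04 log2 units. D1 is the protein that light damages and the plant replaces continually. The log2 signal of psbA was 8.18, 8.42 and 7.56 in the reference, 8.36, 9.03 and 8.39 in 8 h days, 8.72, 8.48 and 8.63 in ft-1 and 9.29, 8.99 and 9.38 at 10 °C. Its 10 °C arrays lay above all reference and ft-1 arrays and overlapped those of 8 h days at 1 point. The rise over the reference was 1.17 ± 0.239 log2 units (adjusted p = 0.00314, limma), but it was 0.48 with no call after scaling on the hybridisation controls.

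The neighbouring genes psbK and psbI encode small subunits near the photosystem II core. The log2 signal of psbI was 8.01, 8.15 and 7.61 in the reference, 7.94, 7.43 and 7.52 in 8 h days, 6.96, 7.17 and 7.19 in ft-1 and 5.98, 6.72 and 6.83 at 10 °C. For psbK it was 8.42, 8.12 and 7.74 in the reference, 7.89, 7.77 and 7.58 in 8 h days, 7.39, 6.83 and 7.61 in ft-1 and 6.45, 7.22 and 6.42 at 10 °C. In both, the mean was highest in the reference and lowest at 10 °C, with 8 h days and ft-1 between them. The 10 °C arrays lay below all others for psbI and overlapped those of ft-1 for psbK. The falls at 10 °C were 1.42 ± 0.247 for psbI (adjusted p = 0.00132, limma) and 1.39 ± 0.268 for psbK (adjusted p = 0.00227, limma). With the poly-A covariate psbI kept its call at -1.49, and psbK was -0.83 without one.

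The core genes gave differences near 0. For psbB, psbD, psbE and psbF they lay between -0.09 and 0.04 log2 units, and the 95% interval for D2 (psbD) ran from -0.60 to 0.52. The antenna gene psbC had a difference of -0.45 with an interval from -1.36 to 0.45. The brightest gene of the complex, psbM, a small subunit at the dimer interface, read 10.64, 10.37 and 10.80 in the reference, 11.84, 11.80 and 9.09 in 8 h days, 11.13, 11.39 and 9.45 in ft-1 and 12.24, 11.30 and 12.76 at 10 °C. Array 3 was low in both the 8 h and the ft-1 group, and the difference at 10 °C of 1.496 ± 0.627 did not pass (adjusted p = 0.0813, limma). The other small-subunit and assembly genes psbH, psbJ, psbL, psbN, psbT and psbZ had differences from -0.58 to 0.89 and no call.

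The cytochrome b6f complex passes electrons from plastoquinone to plastocyanin. Its large subunits are cytochrome f (petA), cytochrome b6 (petB) and subunit IV (petD), and petG, petL and petN encode small ones. Cytochrome f and cytochrome b6 fell at 10 °C, and the other 4 genes had values from 0.23 to 0.63 log2 units without a call. The log2 signal of petA was 8.13, 8.47 and 7.06 in the reference, 7.76, 7.82 and 7.42 in 8 h days, 7.57, 7.16 and 7.28 in ft-1 and 6.56, 6.95 and 6.40 at 10 °C. The difference from the reference was -1.25 ± 0.302 (adjusted p = 0.00756, limma), and against reference array 3 alone it was -0.42 without a call. For petB the reference read 9.25, 9.32 and 9.11, 8 h days 8.26, 8.85 and 8.44, ft-1 8.90, 8.01 and 8.81 and 10 °C 8.03, 8.51 and 8.18. The reference was the highest of the groups, and the fall at 10 °C was 0.99 ± 0.241 (adjusted p = 0.0078, limma). With the poly-A covariate it was -0.29, without a call (adjusted p = 0.618, limma).

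Photosystem I drives electrons to ferredoxin. Its reaction centre proteins are encoded by psaA and psaB and its iron-sulfur protein by psaC, while psaI and psaJ encode small subunits. The brightest, psaB, read 11.07, 10.95 and 10.24 in the reference, 10.76, 11.02 and 10.92 in 8 h days, 10.31, 10.01 and 9.92 in ft-1 and 9.85, 10.34 and 9.85 at 10 °C. The ft-1 and 10 °C arrays overlapped each other and reference array 3, and the fall at 10 °C was 0.74 ± 0.213 log2 units (adjusted p = 0.0171, limma). It was -0.23 against reference array 3 alone, with no call, and the call was also lost without reference array 1 (-0.59) or 2 (-0.64) and without 10 °C array 1 or 3 (-0.66 each).

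The small subunit gene psaJ read 5.09, 5.05 and 5.10 in the reference and 6.15, 5.49 and 5.65 at 10 °C. Its rise of 0.68 ± 0.24 (adjusted p = 0.0419, limma) was -0.003 after scaling on the hybridisation controls. It kept its call in only 1 of the 6 fits that left out 1 array of these groups, that without 10 °C array 2; in the other 5 it was 0.49 to 0.74. For psaC the difference was -0.05, with an interval from -0.78 to 0.68. The assembly gene ycf3, needed to build photosystem I, read 6.58, 6.57 and 5.89 in the reference, 6.40, 6.05 and 6.21 in 8 h days, 6.76, 5.80 and 6.28 in ft-1 and 4.70, 5.24 and 5.28 at 10 °C. All 10 °C arrays lay below all others, with a fall of 1.28 ± 0.285 (adjusted p = 0.00511, limma). It was -0.74 with the poly-A covariate and -0.82 against reference array 3 alone, without a call in either. The second assembly gene, ycf4, had a difference of -0.54 and no call.

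Rubisco fixes carbon dioxide, and rbcL encodes its large subunit. Its log2 signal was 6.22, 6.67 and 6.11 in the reference, 6.69, 6.44 and 6.76 in 8 h days, 6.34, 6.25 and 5.87 in ft-1 and 5.86, 6.29 and 6.21 at 10 °C. The reference arrays overlapped those of every other group, while the 3 arrays from 8 h days lay above all arrays from ft-1 and 10 °C, with no call in either comparison (adjusted p = 0.771 and 0.135, limma). The difference at 10 °C from the reference was -0.21 ± 0.229, with an interval from -0.74 to 0.31 and an adjusted p of 0.5 in limma.

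**Figure D3:**
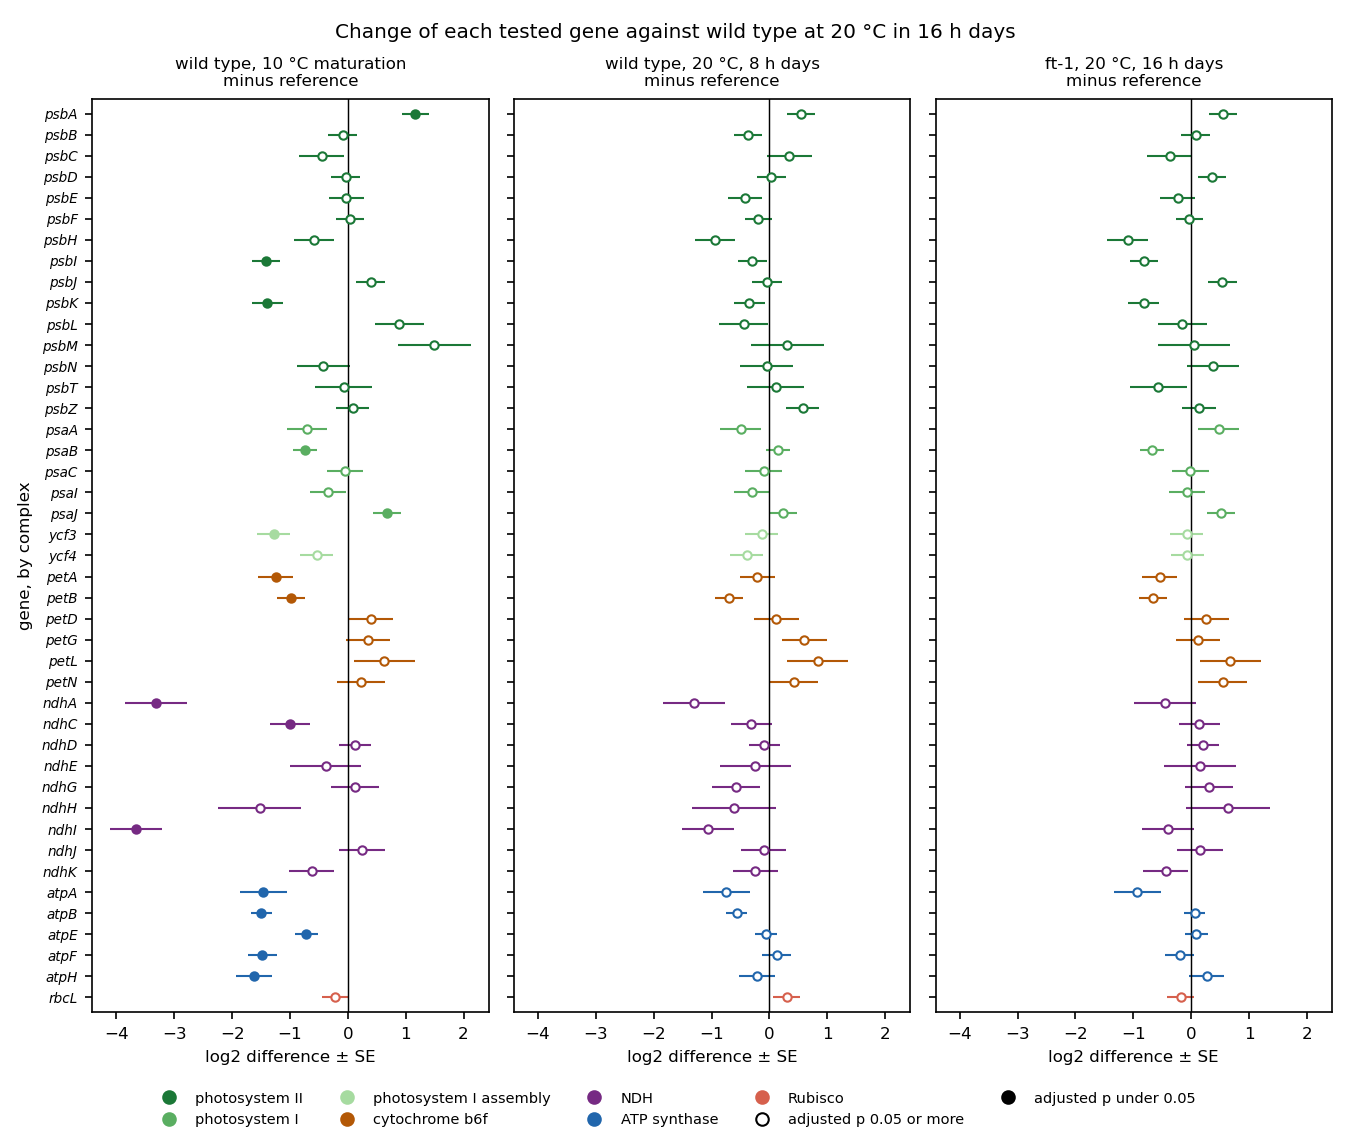
Log2 difference ± SE of each tested gene against the reference group, for 10 °C maturation, 8 h days and ft-1; filled points passed the test (adjusted p under 0.05 in limma). Filled points appear in the panel for 10 °C only, where 14 lie left and 2 right of 0.

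In seed from 8 h days, 0 of the 43 genes passed the test against the reference in limma, with 6 at an unadjusted p under 0.05, while 1.78% of all tested probe sets passed. The median difference was -0.19 log2 units, against -0.06 for all tested probe sets. The largest differences were in the NDH genes that fell at 10 °C, with -1.31 ± 0.539 for ndhA (adjusted p = 0.233, limma) and -1.06 ± 0.449 for ndhI (adjusted p = 0.244, limma). In both, the 3 arrays from 8 h days lay below the 3 reference arrays. The small photosystem II gene psbH had -0.94 ± 0.348, petB -0.71 ± 0.241 and atpB -0.57 ± 0.183, all without a call (adjusted p = 0.182, 0.148 and 0.132, limma). Under other settings up to 7 of the 43 passed, the highest count being with array weights. All 7 were down, where 10.3% of all tested probe sets fell and 7.61% rose.

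In the ft-1 arrays, 0 of the 43 genes passed against the reference in limma, 9 had an unadjusted p under 0.05, and 0.388% of all tested probe sets passed. The median difference was 0.05 log2 units. The lowest value was that of psbH, at -1.10 ± 0.348 (adjusted p = 0.198, limma). The pair psbI and psbK each had -0.82, with SE of 0.247 and 0.268, and psaB had -0.68 ± 0.213. The D1 gene psbA was 0.56 ± 0.239 higher. These comparisons share the reference arrays, so a low or high reference reading enters all of them. With array weights 8 genes passed, all down, where 6.89% of all tested probe sets fell and 6.05% rose. With the poly-A covariate 4 passed, all down, against 4.79% and 2.96% of all.

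The seed from 10 °C was also set against the other groups from 20 °C. These differences do not use the reference arrays, but their SE and p-values do, through the spread that all groups share. Against 8 h days, 11 genes fell and 1 rose, where 10.2% of all tested probe sets fell and 7.26% rose. RCA differed by 0.02 log2 units between these groups. Of the 8 tested nuclear photosynthesis genes, however, 3 rose, LHCB4.3 the most at 2.26, and 1 fell. The genes that fell were ndhI (-2.60 ± 0.449), ndhA (-2.01 ± 0.539), atpF (-1.60 ± 0.25), atpH (-1.41 ± 0.306), atpB (-0.93 ± 0.183), atpE (-0.65 ± 0.192), ycf3, psbI, psbK, petA and psaB. The small photosystem II gene psbL rose by 1.34 ± 0.422, from 5.55, 5.17 and 4.80 to 6.41, 5.94 and 7.19 (adjusted p = 0.0417, limma). The count was 6 without 8 h array 1, where 4.53% of all tested probe sets fell and 4.35% rose. It was 6 without 10 °C array 1 (4.17% fell and 3.62% rose) and 7 without 10 °C array 3 (4.49% and 3.66%). It was 6, all down, with the poly-A covariate, where 7.51% of all tested probe sets fell and 5.86% rose. A fit of only these 2 groups gave 2 up and 12 down, where 9.66% of all rose and 13.7% fell.

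Against ft-1, 10 genes fell and none rose at 10 °C, where 14.6% of all tested probe sets fell and 9.36% rose. They included ndhI (-3.25 ± 0.449), ndhA (-2.87 ± 0.539), atpH (-1.90 ± 0.306), atpB (-1.55 ± 0.183), atpF (-1.27 ± 0.25), atpE (-0.81 ± 0.192), ndhC and ycf3. Another 2, psaA (-1.18 ± 0.349) and ndhH (-2.16 ± 0.72), had no call against the reference. The difference in RCA was 0.20 log2 units. Among the 8 tested nuclear photosynthesis genes, by contrast, 4 rose and 0 fell, with a median difference of 1.38. Those that rose were LHCB4.3 (3.14), PSBW (2.07), PSAE-1 (2.05) and LHCB4.2 (1.63). The count of plastid photosynthesis genes was 6 without ft-1 array 1, where 6.48% of all tested probe sets fell and 5.67% rose. It was 7, all down, in a fit of only these 2 groups (5.5% and 5.74% of all). With the poly-A covariate it was 3 (ndhI at -1.10, atpB and atpH), where 2.41% of all tested probe sets fell and 2.89% rose. After scaling on the hybridisation controls it was 20, all down, where 45% of all tested probe sets fell. Between ft-1 and 8 h days, 0 of the 43 passed in limma, 5 had an unadjusted p under 0.05, and 0.176% of all tested probe sets passed. Across all 6 comparisons 19 of the 43 genes passed at least 1 test, and the matching share of all tested probe sets was not computed. In the comparison of 10 °C with the reference alone, 20.5% of all tested probe sets fell and 11.3% rose.

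Genes that are transcribed together were then set side by side in gene order of the TAIR10.1 plastid chromosome. Both genes of the psbK-psbI cluster fell alike, at -1.39 and -1.42 log2 units. So did the run of atpH, atpF and atpA, at -1.62, -1.48 and -1.46. Beyond the untested atpI, rps2 of the small ribosomal subunit had -2.33. Other clusters held unlike values. In the cluster from ndhH to ndhD, ndhH had -1.52, ndhA -3.31 and ndhI -3.66, and beyond them ndhG had 0.12, ndhE -0.38, psaC -0.05 and ndhD 0.13.

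The step from ndhI to ndhG, a difference of -3.78 between their changes, was the largest of 27 pairs of neighbouring tested genes. The untested atpI was skipped, so rps2 and atpH counted as a pair. In 5 pairs the within-array difference did not overlap between the 10 °C and the reference arrays: ndhI with ndhG, petB with petD (-1.38), ndhK with ndhJ (-0.87), atpB with atpE (-0.78) and psaB with rps14 (-0.64). An exact two-sided permutation test of 3 arrays against 3 cannot go below p = 0.1, which these 5 reached. A pair with no change would separate like this with a probability of 0.1, and the share over other gene pairs was not computed. After Benjamini-Hochberg adjustment over the 27 pairs the 5 stood at 0.54, so their count is not read as a result. The psbE-psbF-psbL-psbJ cluster and the genes psbB and psbT of the psbB-psbT-psbH-petB-petD cluster had values between -0.09 and 0.89 and no call.

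**Figure D4:**
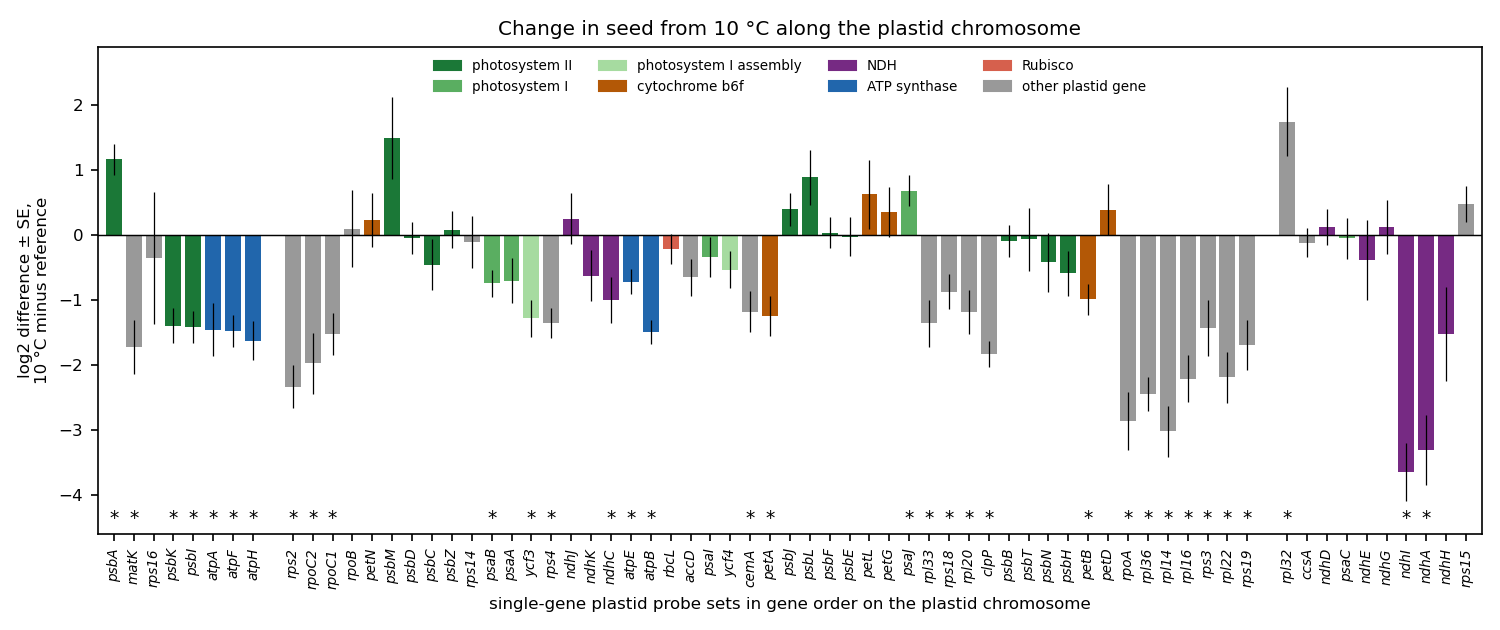
Log2 difference ± SE of seed from 10 °C against the reference for single-gene plastid probe sets in gene order, coloured by complex, with other plastid genes in grey; asterisks mark adjusted p under 0.05 in limma, and empty places are the untested atpI and ndhF. Falls of ndhI and ndhA stand beside values near 0 for ndhG, ndhE, psaC and ndhD, and the grey bars of the ribosomal protein cluster lie lower than most coloured bars.

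The other plastid-encoded genes, mainly ribosomal protein and RNA polymerase genes, were measured on 24 single-gene probe sets, all tested. Of these 17 fell and 1 rose at 10 °C, with a median of -1.40 log2 units, against the median of -0.38 for the photosynthesis genes. Among them the large ribosomal subunit gene rpl14 had -3.02 ± 0.393, the protease gene clpP -1.83 ± 0.207 and rps4, of the small ribosomal subunit, -1.35 ± 0.233. The gene that rose was rpl32, at 1.75 ± 0.534. In 8 h days and in ft-1, 0 of the 24 passed in limma, with 4 and 1 at an unadjusted p under 0.05. Of 16 mitochondrial genes matched by symbol, 14 were tested, and 3 rose and 3 fell at 10 °C with a median of 0.17.

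Nuclear partners of the same complexes could be read for few genes, 8 of the 53 being tested. At 10 °C 3 rose and 2 fell. The antenna genes LHCB4.3 and LHCB4.2 rose by 2.57 ± 0.224 and 1.67 ± 0.178, and LHCB4.1, of the same small family, fell by 0.61 ± 0.199. PSBW, a nuclear-encoded photosystem II subunit gene, rose by 1.74 ± 0.365, and RCA had -1.98 ± 0.608, set by reference arrays 1 and 2. Of 38 nuclear genes for plastid transcription and RNA processing only PAC was tested, with 0.61 ± 0.291 and no call. Markers of pollen also moved with the groups: all 3 rose at 10 °C, and their summed signal was 15.06 and 18.51 on reference arrays 1 and 2, 71.04 on array 3 and 162.3 to 186.1 at 10 °C. It was 216.5 to 294.5 in 8 h days and 69.77 to 484.3 in ft-1, and its part in the plastid values was not tested.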

How the data were processed

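Intensities on a linear scale were deposited by the authors for every probe set on every array; the tools were MAS5 and GCOS, per the submitters' processing notes, with versions not given. On each array the mean trimmed by 2% at both ends lay at 100, so a change in total RNA per seed cannot be seen. Background subtraction makes low values noisy on a log scale. Of 22810 probe sets, 64 controls stayed out, and the 9098 whose mean log2 signal was under the 40th percentile were not tested. The lowest mean tested was 2.88.

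Log2 intensities of all 12 arrays entered a linear model of the 4 groups with limma 3.58.1 in R 4.3.3, leaving 8 residual degrees of freedom. Statistics were moderated with an intensity trend, and two-sided p-values were adjusted by Benjamini-Hochberg over all tested probe sets within each of 6 comparisons. A gene "rose" or "fell" at an adjusted p under 0.05. The number of arrays limits the precision, and dim genes vary more. The scripts were tested on simulated data.

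Gene names came from the platform annotation, and plastid location and gene order from the TAIR10.1 gene table. Coordinates are left out, as the sources used here do not name the annotation's build. The members, gene lists and co-transcribed clusters, the latter from textbook knowledge, were chosen with earlier results of these data known. Values on every array are given for the 12 genes with the smallest adjusted p in any comparison and for the brightest gene of each complex. A few more genes were named after their values were seen. Replicate numbers did not pair the samples: of 18 same-number correlations of deviations from group means, 2 were over 0.1 (range -0.23 to 0.142).

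Alternatives were quantile normalization, array-median centring, scaling on 18 hybridisation controls, the mean of 24 poly-A controls as a covariate, no filter, a filter on mean signal at percentile 60, 16 added before the log, no trend, array weights, the replicate number as a block, fits of only the groups compared, and each array left out. Centring on the median of the tested probe sets, a spread without ft-1 array 2, and leaving out reference arrays 1 and 2 were added after seeing the data.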

Additional observations from a re-analysis of the deposited data

How the results depend on the processing

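The 16 calls at 10 °C against the reference became 5 with the poly-A covariate (all probe sets 1.64% up and 1.46% down). With 1 array left out they were 11 to 17 (6.81% to 11.4% and 12.2% to 23.3%), and other scalings gave 15 to 24. Without reference arrays 1 and 2 the median of the 43 genes was 0.01, against -0.168 for all tested probe sets. Scaling moved the direction of the calls. After centring on the median of the tested probe sets 5 genes rose and 11 fell (all probe sets 19.7% and 11.3%, median 0.19). After scaling on the hybridisation controls 0 rose and 24 fell (all probe sets 2.06% and 50.6%, median -0.85). Under the poly-A covariate ndhC turned to 0.10 against the reference and to 0.13 against ft-1. For 8 h days against the reference, 7 genes passed with array weights (all probe sets 7.61% up and 10.3% down) and 3 in a fit of only those groups (3.06% and 5.06%). With a spread without ft-1 array 2 it was 4 (3.44% and 4.9%), and with any 1 array left out 0 (0.125% to 0.52% and 0.344% to 1.06%). For ft-1 against the reference 8 passed with array weights (6.05% and 6.89%) and 4 with the poly-A covariate (2.96% and 4.79%). With an array left out it was 0 to 1 (0.0733% to 0.432% and 0.022% to 0.41%). For 10 °C against 8 h days 6 passed with the poly-A covariate (5.86% and 7.51%) and 6 to 11 with an array left out (3.62% to 7.86% and 4.17% to 14.2%). For ft-1 against 8 h days it was 10 with array weights (9.58% and 7.23%) and 0 to 3 with an array left out (0% to 2.95% and 0% to 1.69%). For 10 °C against ft-1 it was 20 after hybridisation control scaling (2.26% and 45%) and 18 with array weights (18.4% and 31.7%). It was 3 with the poly-A covariate (2.89% and 2.41%) and 6 to 13 with an array left out (5.63% to 13.9% and 6.48% to 23.6%). The cause was not tested.

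The replicate number as a block gave 14 members at 10 °C against the reference, 13 of them down (all probe sets 10.1% up and 17.8% down). It gave 11 against 8 h days (6.1% and 8.03%) and 10 against ft-1 (8.29% and 12.4%). Same-numbered samples share only a number, since 3 of the correlations were best with their own number. Over 20 alternatives the calls at 10 °C against the reference were lost most often for psaJ and ndhC, in 11 each, then for psaB (7), atpA (6) and atpE (5). Dim genes such as ndhE and ndhH have wide errors.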

Other observations

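Across the 43 tested genes, the change at 10 °C had a Spearman correlation of -0.448 with gene length and of -0.138 with mean log2 signal. This describes 1 set of libraries over genes that share arrays, clusters and transcripts. Genes with an intron, taken from a textbook list after the values were seen, are atpF, ycf3, petB, petD and ndhA among the photosynthesis genes. Of these 5, 4 fell at 10 °C, with a median of -1.28 log2 units. Of the 38 tested genes without an intron 10 fell and 2 rose, with a median of -0.28. Among the other plastid genes 3 of 4 with an intron and 14 of 20 without one fell. No test was made of these counts.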
